A study of Mus musculus with 6 samples.

Results

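The genes followed here make, release, store or burn glucose in the liver: Pcx, Pck1, Fbp1, G6pc, Slc2a2, Pklr, Gys2, Pygl and Ppargc1a. They were taken by gene symbol and are 9 of the 55385 genes in the deposited table, and all 9 passed the filter on low values that left 11677 genes for testing. RNA came from the livers of 6 C57BL/6 mice aged 6 weeks, in 3 groups of 2. Wild-type controls (replicates 3 and 6) had an intraperitoneal dose of phosphate-buffered saline (200 µL). By the same route, wild-type mice (replicates 1 and 4) and Optn-/- mice (replicates 4 and 5) were given acetaminophen at 500 mg/kg, and every liver was taken 6 h later. Optn encodes optineurin, a receptor that takes damaged mitochondria into autophagy, and a high dose of acetaminophen (paracetamol) is widely used to injure the mouse liver, where pericentral hepatocytes are hit first. The labels do not say whether the knockout is constitutive or whether the mice were fasted. Knockout mice without acetaminophen were not analysed here, so knockout and treatment can be compared only with these 3 groups.

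Hepatocytes hold blood glucose steady between meals. Gluconeogenesis runs from pyruvate through the reactions of pyruvate carboxylase (Pcx), phosphoenolpyruvate carboxykinase (Pck1), fructose-1,6-bisphosphatase (Fbp1) and glucose-6-phosphatase (G6pc), and glucose leaves or enters through the transporter GLUT2 (Slc2a2). Liver pyruvate kinase (Pklr) runs the last step of glycolysis in the opposite direction to Pcx and Pck1, glycogen synthase (Gys2) stores glucose and glycogen phosphorylase (Pygl) frees it again. The coactivator PGC-1alpha (Ppargc1a) is known to drive Pck1 and G6pc in fasting, and the transcription factor ChREBP (Mlxipl) to drive Pklr when glucose is plentiful. Glucose production is strongest in periportal hepatocytes and glycolysis in pericentral ones.

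The libraries held between 59.1 and 77.3 M counts (M, 1e6). Levels are given as deposited FPKM (fragments scaled by gene length and library total), which can be compared between genes. Log2 fold changes come from the counts with TMM scaling, a scaling that sets most genes near no change, and edgeR's quasi-likelihood test. The standard error (SE) of each was worked back from that test, as the size of the change over the square root of its F statistic. The 95% intervals use this SE and a t quantile. The "adjusted p" is the test's Benjamini-Hochberg value over all 11677 genes, called under 0.05. Scaling by total counts instead places the median gene at -0.19 after acetaminophen in wild type, so FPKM ratios lie somewhat below the fitted fold changes. Optn, which checks the genotype labels, had an FPKM of 20.95 and 18.73 in controls, 9.17 and 9.19 in treated wild type and 0.316 and 0.457 in the knockout. The 11 hepatocyte markers made up 14.0% to 17.4% of counts in every library, while 6 adipocyte markers summed to at most 36.3 CPM (counts per 1e6 counts), with Lep at 0 in all libraries; the labels' protocol mentions adipose tissue. Transcripts of other tissues divided the libraries into 2 sets. The 12 skeletal muscle markers summed to 68.9 to 105.2 CPM in control 3 and both treated wild-type mice and to at most 1.01 CPM in control 6 and both knockouts. The 11 intestinal markers other than Fabp2, which makes up most of the full list's sum in some libraries, reached 27.3 to 38.0 CPM in the latter set and at most 8.74 CPM in the former. In wild-type acetaminophen replicate 4 alone, the 10 neuronal markers summed to 138.3 CPM, against at most 14.8 CPM elsewhere. Treated wild type and treated knockout lie wholly in different sets, so a set effect on that comparison can be estimated only from the controls, 1 in each set.

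After acetaminophen in wild type, 2 of the 9 genes passed the test, both downward: Pklr and Slc2a2. That is 22.2% of the 9, where 5.92% of all genes tested fell and 14.3% changed in either direction. None of the 4 enzymes of the gluconeogenic route passed, and their log2 fold changes lay between -0.17 and 0.41. The median of the 9 log2 fold changes was -0.02, beside 0.03 over all genes tested. In the plot of FPKM by gene, the 2 mice of each group lie close together for Pklr and Slc2a2 and far apart for G6pc in controls and Ppargc1a after acetaminophen.

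**Figure D1:**
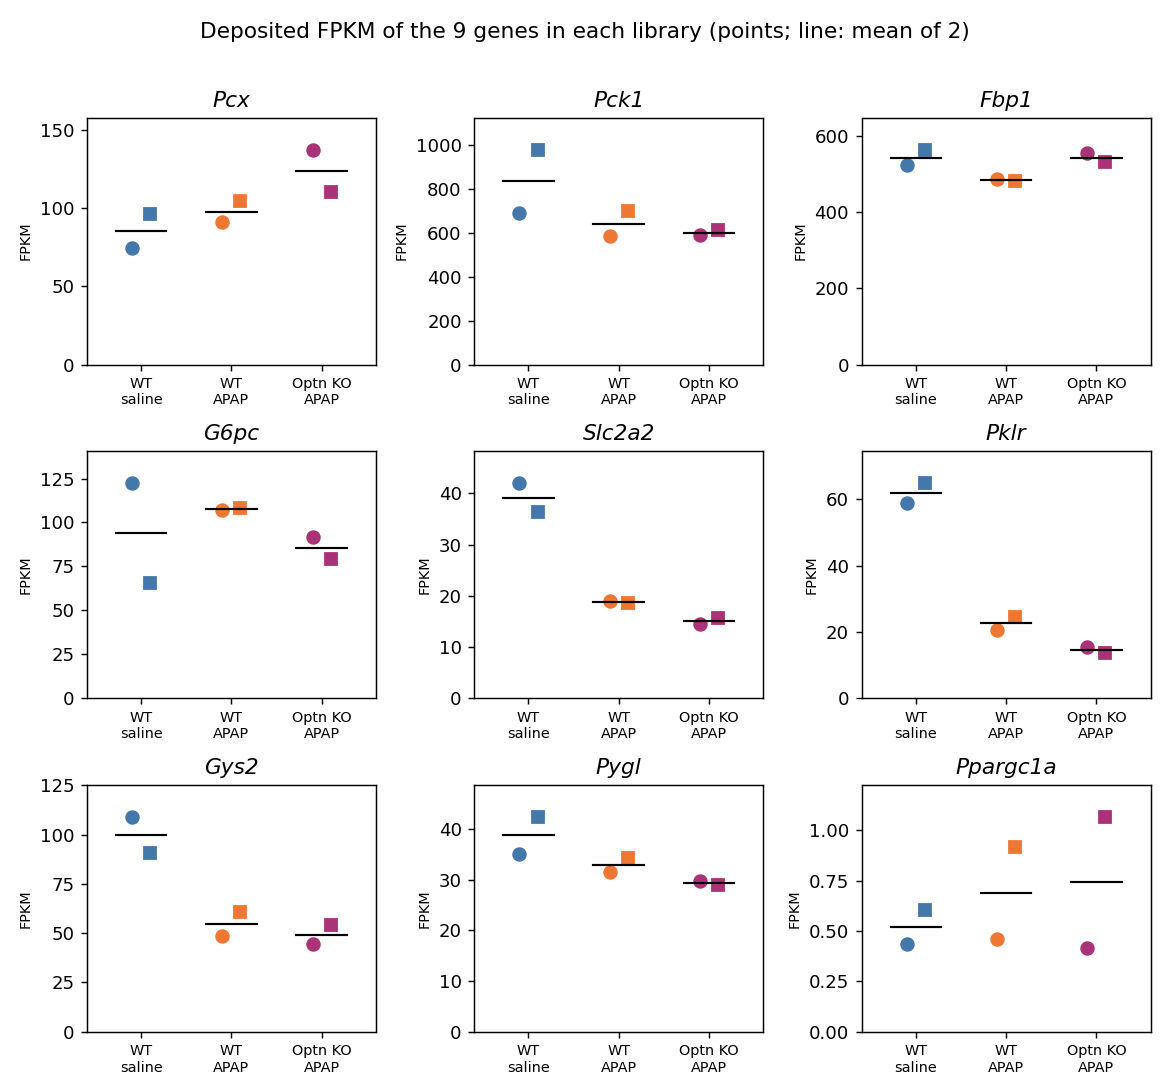
Deposited FPKM (vertical axis, linear from 0, own scale per panel) of the 9 genes in the 3 groups; circles are the lower-numbered replicate, squares the higher-numbered one, and lines the mean of 2. Pklr falls from 58.8 and 64.7 in controls to 20.7 and 24.5 in treated wild type and 15.5 and 13.8 in treated knockout, and Slc2a2 shows the same order, while Fbp1 stays between 481.2 and 563.5.

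Pklr and Slc2a2 both lie on chromosome 3, and the sequence before their starts is shown because they are the genes that fell, with that of Pck1, which did not pass, for comparison. The sequences are from RefSeq (GRCm38.p6), read 5′ to 3′ on the gene's strand, as the stretch of the 250 bases before the start that overlaps no annotated exon. Pklr is shown at its downstream start, known as the liver-type promoter, which lies in the first intron of the longer transcript. Capitals mark matches to the letters searched.

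Pklr, chr3:89136373-89136571, plus strand: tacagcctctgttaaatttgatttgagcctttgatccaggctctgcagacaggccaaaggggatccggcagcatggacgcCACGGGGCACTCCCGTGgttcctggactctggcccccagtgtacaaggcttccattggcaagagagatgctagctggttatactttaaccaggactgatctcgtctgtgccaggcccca
Slc2a2, chr3:28697653-28697902, plus strand: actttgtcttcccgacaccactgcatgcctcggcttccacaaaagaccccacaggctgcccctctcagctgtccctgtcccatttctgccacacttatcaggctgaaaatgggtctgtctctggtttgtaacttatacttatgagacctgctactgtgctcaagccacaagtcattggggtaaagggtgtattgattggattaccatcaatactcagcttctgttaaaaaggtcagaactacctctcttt
Pck1, chr2:173152823-173153047, plus strand: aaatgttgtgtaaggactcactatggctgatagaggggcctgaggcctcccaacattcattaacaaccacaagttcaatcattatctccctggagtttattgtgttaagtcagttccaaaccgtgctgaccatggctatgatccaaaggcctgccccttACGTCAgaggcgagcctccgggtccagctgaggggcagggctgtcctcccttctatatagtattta

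In Pklr the capitals mark CACG and CGTG with 9 bases of any kind between them, the layout of a carbohydrate response element, 170 to 154 bases before the start. Such a match stood in 0.219% of 32851 RefSeq windows of 250 bases. In Pck1 they mark ACGTCA, the core of a cAMP response element, 91 to 86 bases before the start, a match found in 6.47% of windows and also, among these genes, in Ppargc1a. The forkhead core TGTTTAC, in 3.17% of windows, had no match in the windows of the 8 genes with an entry, and TATAAA, in 12.4%, matched in G6pc and at the downstream start of Pklr. Gys2 had no entry. All motifs were searched on both strands, and a match is a description of the letters only.

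Pcx (ENSMUSG00000024892, chromosome 19, 4510472 to 4621752, plus strand, GRCm38) encodes pyruvate carboxylase, which turns pyruvate into oxaloacetate in mitochondria. It was measured at an FPKM of 74.3 in control replicate 3 and 96.3 in replicate 6, at 91.0 and 104.8 in treated wild-type replicates 1 and 4, and at 137.3 and 110.6 in treated knockout replicates 4 and 5. The knockout libraries were above all others, and those of the wild-type groups overlapped. In wild type acetaminophen shifted the estimate by 0.41 ± 0.19 on the log2 scale (SE, n = 2 per group), which did not pass edgeR's test (adjusted p = 0.195).

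Pck1 (ENSMUSG00000027513, chromosome 2, 173153048 to 173159273, plus strand) encodes the cytosolic enzyme that commits oxaloacetate to glucose. It had the highest level of the 9 genes, with an FPKM of 692 and 979 in controls, 586 and 699 in treated wild type and 589.6 and 615 in treated knockout. The wild-type groups overlapped, since control replicate 3 lay below treated replicate 4. EdgeR put the change in wild type at -0.17 ± 0.19 on the log2 scale (adjusted p = 0.595), with a 95% interval from -0.64 to 0.30.

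Fbp1 (ENSMUSG00000069805, chromosome 13, 62864753 to 62888282, minus strand), which removes a phosphate from fructose 1,6-bisphosphate, was the most even of the 9. Its FPKM was 523.5 and 563.5 in controls, 486.6 and 481.2 in treated wild type, and 555.8 and 530.9 in treated knockout. Treated wild type was lowest in FPKM, whereas on the TMM scale its fitted change against controls was 0.04 ± 0.12 (edgeR adjusted p = 0.841), and -0.18 with total-count scaling. Its interval ran from -0.26 to 0.35.

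G6pc (ENSMUSG00000078650, chromosome 11, 101367561 to 101377903, plus strand) encodes the phosphatase that releases free glucose. The FPKM was 122.2 and 65.7 in controls, 107.1 and 108.4 in treated wild type, and 91.6 and 79.2 in treated knockout. Both treated groups lay within the range of the controls, which differed from each other more than the treated mice did. The log2 fold change in wild type was 0.40 ± 0.30 in edgeR (adjusted p = 0.403), with an interval from -0.33 to 1.14.

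Slc2a2 (ENSMUSG00000027690, chromosome 3, 28697903 to 28731359, plus strand), the glucose transporter of the hepatocyte surface, fell. Its FPKM was 41.9 and 36.3 in controls, 19.0 and 18.6 in treated wild type, and 14.5 and 15.7 in treated knockout. No 2 of the groups overlapped, and the knockout was lowest. After acetaminophen in wild type it was 1.79-fold lower, -0.84 ± 0.13 on the log2 scale (edgeR adjusted p = 0.0153). The call was lost without control replicate 3 (-0.72, adjusted p = 0.0798), without treated wild-type replicate 1 (-0.89, adjusted p = 0.0578) and also without its replicate 4 (-0.80, adjusted p = 0.0641). In whole liver RNA, fewer cells of a type and less of a transcript in each cannot be told apart. The 11 hepatocyte markers made up 14.6% to 15.3% of counts in controls. Their share was 17.3% to 17.4% in treated wild type and 14.0% to 16.3% in treated knockout. None of them fell against saline in either. The 10 pericentral hepatocyte markers summed to 11370 and 13540 CPM in controls. In treated wild type they summed to 4580 to 6541 CPM, and in treated knockout to 3285 to 3716 CPM. The 10 periportal markers, at 9307 to 11520 CPM over all libraries, showed no such fall. These are shares of counts, and the part of cell loss in the fall of Slc2a2 was not tested.

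Pklr (ENSMUSG00000041237, chromosome 3, 89136142 to 89146594, plus strand) encodes liver pyruvate kinase, which turns phosphoenolpyruvate into pyruvate. Its FPKM was 58.8 and 64.7 in controls, 20.7 and 24.5 in treated wild type, and 15.5 and 13.8 in treated knockout. The 3 groups were separate, with controls highest and knockouts lowest. In treated wild type Pklr was 2.37-fold lower than in controls, -1.24 ± 0.14 on the log2 scale (edgeR adjusted p = 0.00666), the largest change of the 9 genes in that comparison. It passed in all 15 alternative analyses, with log2 fold changes from -1.46 to -1.15.

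Gys2 (ENSMUSG00000030244, chromosome 6, 142422613 to 142473109, minus strand) encodes the liver form of glycogen synthase. The FPKM was 108.9 and 90.7 in controls, 48.8 and 60.5 in treated wild type, and 44.5 and 54.0 in treated knockout. Both treated groups lay below both controls and overlapped each other. In wild type its log2 fold change was -0.66 ± 0.17, just outside the threshold in edgeR (adjusted p = 0.0539), and 5 of 15 alternatives called it, among them DESeq2 (adjusted p = 0.00374) and limma. The other 10 did not, including all 6 that left out a library, where it was -0.51 without control replicate 3 (adjusted p = 0.222).

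Pygl (ENSMUSG00000021069, chromosome 12, 70190811 to 70231488, minus strand), which frees glucose units from glycogen, had an FPKM of 35.1 and 42.3 in controls, 31.5 and 34.3 in treated wild type, and 29.8 and 29.0 in treated knockout. The groups did not overlap in FPKM, with knockouts lowest, although the controls differed from each other by more than the treated groups did. On the log2 scale the change in wild type was -0.02 ± 0.13 (edgeR adjusted p = 0.921).

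Ppargc1a (ENSMUSG00000029167, chromosome 5, 51454250 to 51567704, minus strand) was the only one of the 9 with low levels, at an FPKM of 0.438 and 0.604 in controls, 0.461 and 0.919 in treated wild type, and 0.417 and 1.06 in treated knockout. Each group had a low and a high mouse, so all groups overlapped. These values rest on 187 to 477 counts per library. Its fitted change of 0.61 ± 0.52 in wild type on the log2 scale (edgeR adjusted p = 0.478) has an interval from -0.68 to 1.89, the widest of the 9.

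**Figure D2:**
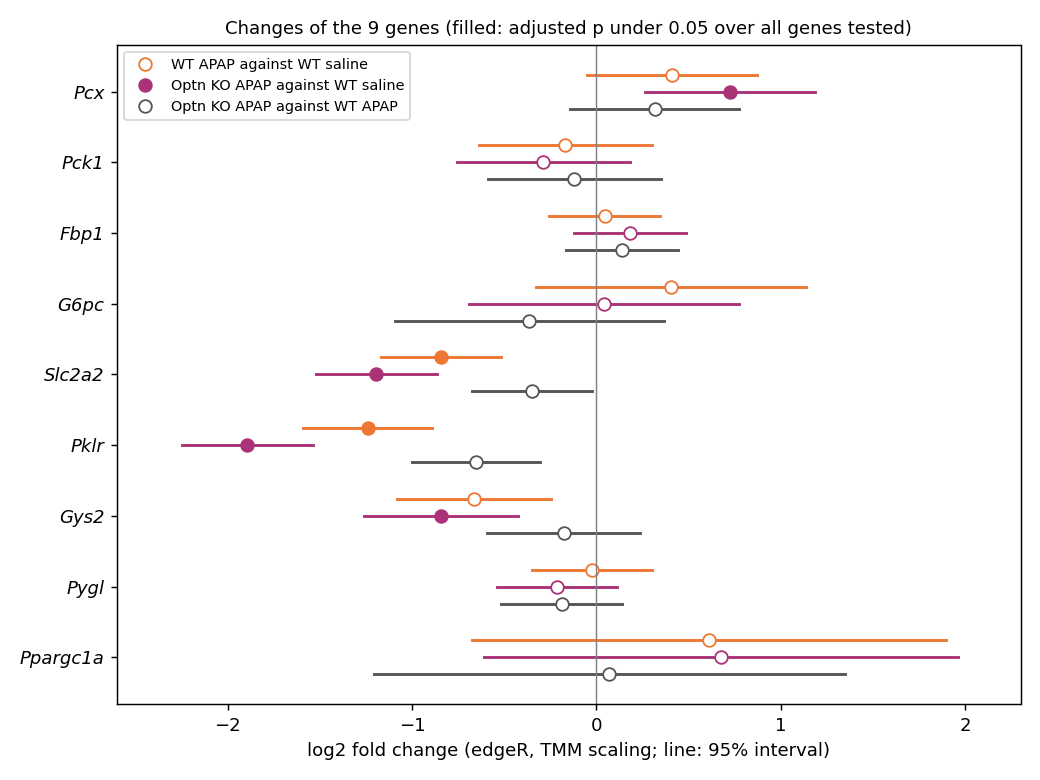
Log2 fold change (horizontal axis) of the 9 genes in 3 comparisons, from edgeR with TMM scaling; lines are 95% intervals and filled points have an adjusted p under 0.05 over all genes tested. Pklr and Slc2a2 are filled and negative in both comparisons with saline, at -1.24 and -0.84 in wild type and -1.89 and -1.19 in knockout, and no point of the knockout against wild-type comparison is filled.

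Pck1 and Fbp1 held the top places by FPKM in every group, and the order below them changed. In controls the order was Pck1, Fbp1, Gys2, G6pc, Pcx, Pklr, Slc2a2, Pygl and Ppargc1a, with means from 835.7 ± 203.2 (SD, n = 2) for Pck1 to 0.52 ± 0.12 for Ppargc1a. Gys2 and G6pc overlapped as neighbours in that order, as did G6pc and Pcx, and Slc2a2 and Pygl. In treated wild type G6pc (107.8 ± 0.92) and Pcx (97.9 ± 9.74) stood above Gys2 (54.6 ± 8.29), and Pygl (32.9 ± 1.97) above Pklr (22.6 ± 2.74) and Slc2a2 (18.8 ± 0.27), with no overlap between neighbours. In treated knockout Pcx (123.9 ± 18.9) stood above G6pc (85.4 ± 8.78), and Slc2a2 (15.1 ± 0.91) and Pklr (14.6 ± 1.22) overlapped. Among all genes ranked by mean FPKM, Pklr stood at place 662 in controls, 1363 in treated wild type and 1891 in treated knockout, while Pck1 stood at 80, 99 and 103.

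After acetaminophen, the knockout did not differ from wild type in any of the 9 genes by edgeR, where 0.103% of all genes tested were called, 12 genes in all, with 0.0514% higher and 0.0514% lower. The unadjusted edgeR value was under 0.05 for 2 of the 9, Pklr and Slc2a2, against 8.77% of all genes. Both were lower in the knockout. The log2 fold change was -0.65 ± 0.14 for Pklr (edgeR adjusted p = 0.344) and -0.35 ± 0.13 for Slc2a2 (edgeR adjusted p = 0.537). DESeq2 called 1 of the 9, Pklr (-0.65, adjusted p = 0.00524), and limma called none. Over all genes tested DESeq2 called 283, beside the 12 of edgeR, so its call for Pklr is to be read against that larger count. The intervals still allow sizeable differences: -1.09 to 0.37 for G6pc, -0.59 to 0.35 for Pck1 and -0.14 to 0.78 for Pcx. With the library set as a term, the estimates were -0.76 for Pklr, -0.11 for Slc2a2, 0.56 for G6pc, 0.11 for Gys2 and -0.03 for Pcx, the last 3 with the sign turned, and none was called.

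Treated knockout against saline wild type combines treatment and genotype and shares its controls with the wild-type comparison, so the 2 are given side by side and are not independent. Here 4 of the 9 genes passed in edgeR, 3 downward and 1 upward, where 8.05% of all genes fell, 12.2% rose and 20.3% changed either way. Pklr was 3.72-fold lower (-1.89 ± 0.14, adjusted p = 0.00173), beside 2.37-fold in wild type. Slc2a2 was 2.29-fold lower (-1.19 ± 0.13, adjusted p = 0.00448), beside 1.79-fold, and both passed in all 15 alternative analyses. Gys2 fell 1.79-fold (-0.84 ± 0.17, adjusted p = 0.0222), and this call was lost without control replicate 3 (-0.69, adjusted p = 0.111), without knockout replicate 4 (-0.73, adjusted p = 0.0910) or without knockout replicate 5 (-0.98, adjusted p = 0.0706). Pcx rose 1.65-fold (0.72 ± 0.19, adjusted p = 0.0451). Only 3 of 15 alternatives kept the call for Pcx, RLE scaling, DESeq2 and the filter at an FPKM of 5. Leaving out any 1 of the 6 libraries ended it, with log2 fold changes from 0.53 to 0.89. Pck1 lay below both controls in both knockouts but did not pass (-0.29 ± 0.19, adjusted p = 0.331), nor did Pygl (-0.21 ± 0.13, adjusted p = 0.303), Fbp1, G6pc or Ppargc1a. Fewer of the 9 genes passed when any 1 library was left out, as was so over all genes.

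The library set bears on these values, since control replicate 3 shares its set with treated wild type and control replicate 6 with treated knockout. With the set as a term, each treated group is in effect compared with the 1 control of its own set. Pklr then changed by -1.19 in wild type (edgeR adjusted p = 0.0328) and -1.95 in knockout (adjusted p = 0.0130), and Slc2a2 by -0.96 (adjusted p = 0.0377) and -1.07 (adjusted p = 0.0276). Within the sets, Gys2 changed by -0.80 and -0.69 (adjusted p = 0.0859 and 0.110) and Pcx by 0.59 and 0.56, none of them called. Pck1 was at 0.09 in wild type and -0.51 in knockout, and G6pc at 0.01 and 0.58, neither called.

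**Figure D3:**
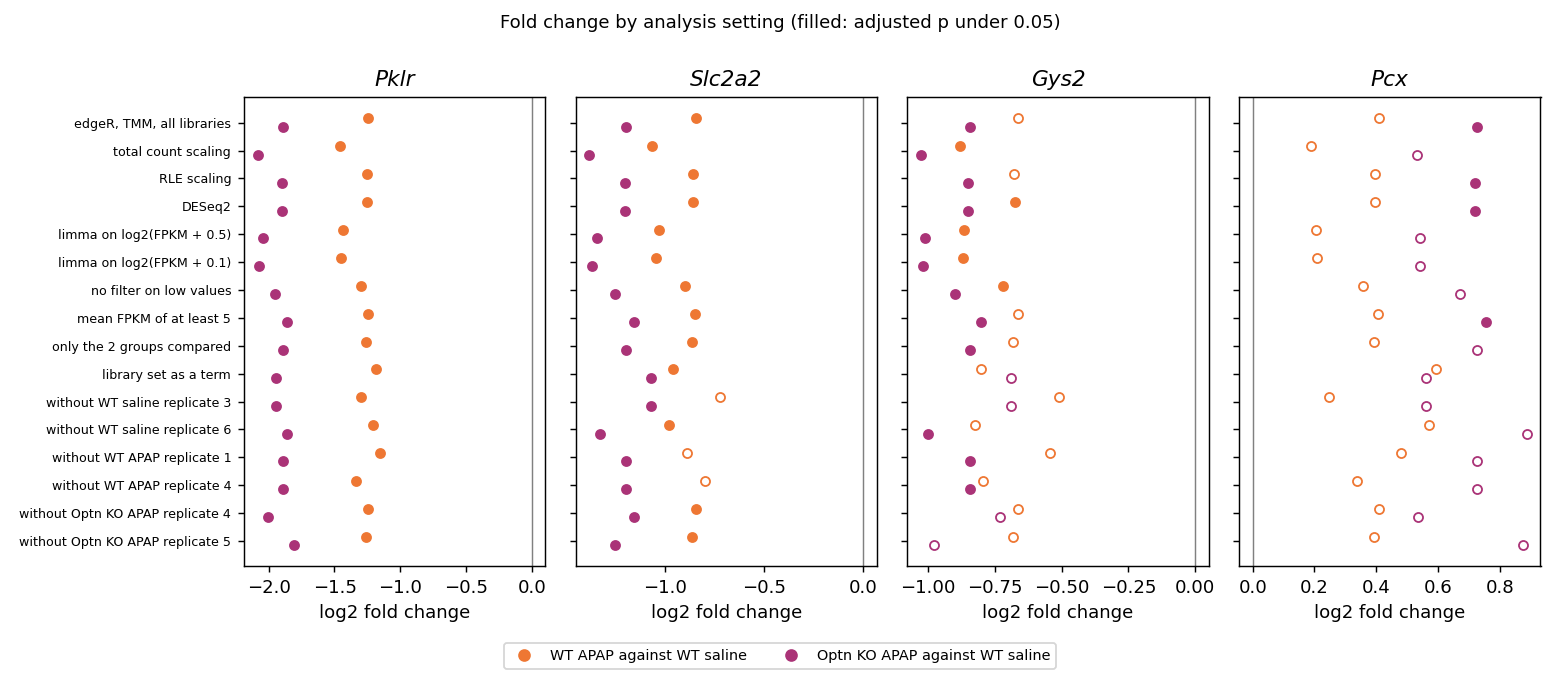
Log2 fold change (horizontal axis, own scale per panel) of the 4 genes called in any comparison, under each analysis setting (rows), for treated wild type and treated knockout against saline; filled points have an adjusted p under 0.05. Pklr is filled throughout, Slc2a2 is open in 3 wild-type settings, and Pcx is filled in 4 knockout settings, the top row among them.

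Because the enzymes of opposing steps share substrates, their FPKM ratio was taken within each library, where library scaling cancels; the partner enzymes were chosen after their values had been seen, and the ratios restate the levels above and were not tested. Pck1 over Pklr, the enzymes that make and use phosphoenolpyruvate, was 11.8 and 15.1 in controls, 28.4 and 28.5 in treated wild type, and 38.1 and 44.7 in treated knockout. The 3 groups were separate. Pygl over Gys2 was 0.322 and 0.466 in controls, 0.645 and 0.566 in treated wild type, and 0.669 and 0.537 in treated knockout, so that the treated groups lay above controls and overlapped each other. Fbp1 over phosphofructokinase (Pfkl) overlapped between the wild-type groups, at 106.9 and 111.4 in controls and 118.1 and 105.6 after acetaminophen, and was 128.8 and 137.9 in treated knockout.

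**Figure D4:**
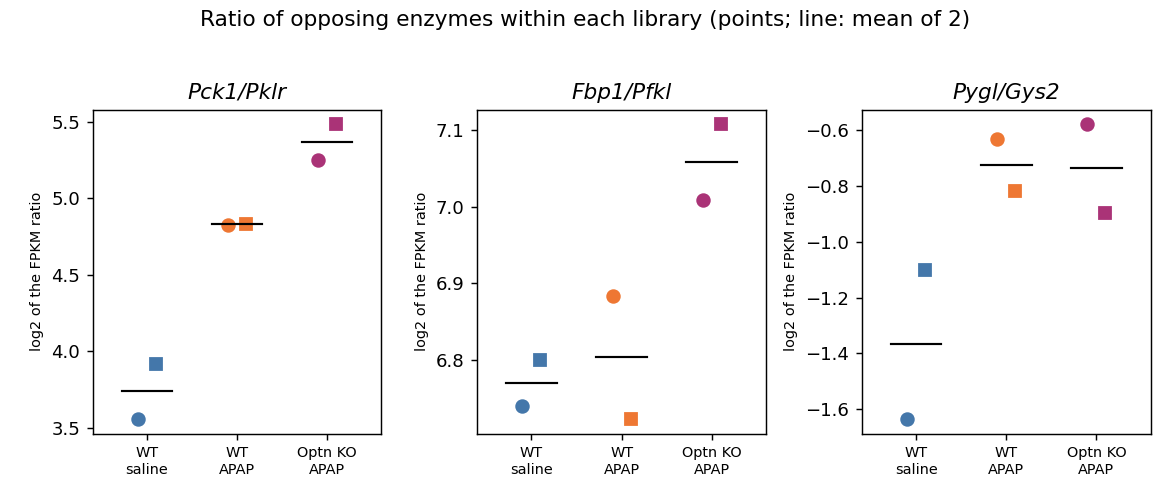
Log2 of the FPKM ratio of opposing enzymes (vertical axis, own scale per panel, not starting at 0) in each library; circles are the lower-numbered replicate, squares the higher-numbered one, and lines the mean of 2. For Pck1/Pklr the mean is 3.74 in controls, 4.83 in treated wild type and 5.37 in treated knockout with no overlap, and for Fbp1/Pfkl the wild-type groups overlap.

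Markers of the hepatocyte zones moved beside these values. The 10 pericentral markers summed to 11370 and 13540 CPM in the controls. They summed to 4580 to 6541 CPM in treated wild type and 3285 to 3716 CPM in treated knockout. Of the 9 tested, 5 fell in wild type and 8 in knockout, where 5.92% and 8.05% of all genes fell. Over all genes, 8.36% rose in wild type and 12.2% in knockout, the shares to set beside the counts below. The 10 periportal markers summed to 9470 to 10220 CPM, 11500 to 11520 CPM and 9307 to 11020 CPM in the same order of groups. Of the 10, 2 rose in wild type and 1 in knockout. Neutrophil markers (10 genes) went from 2.50 and 6.63 CPM in controls to 74.4 and 153.8 CPM in treated wild type and 160.7 and 208.4 CPM in treated knockout. Kupffer cell and monocyte markers (10 genes, 4 of 9 tested higher in both treated groups) summed to 94.1 and 268.2 CPM in controls, 258.9 and 341 CPM in treated wild type, and 406.7 and 588.2 CPM in treated knockout. Stellate cell markers (8 genes) summed to 186.3 and 249.6, 250.2 and 324.9, and 438 and 498.2 CPM in that order. Of these, 1 was lower in each treated group and 5 were higher in treated knockout. Cholangiocyte markers (6 genes, 2 of 4 tested higher in both treated groups) summed to 31.5 and 40.1, 59.2 and 94.5, and 102.8 and 137.4 CPM. Endothelial markers (8 genes) were at 110.6 to 188.9 CPM in controls, and both treated groups lay within that range, at 125.3 to 128.2 CPM in wild type and 164.4 to 183.3 CPM in knockout. No marker of these lists was at 0 in all libraries. The part of zones or of these other cell types in the changes of Pklr, Slc2a2, Gys2 and Pcx was not tested.

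Isozymes that other tissues use in place of the liver forms were listed as well, and 9 of 15 were abundant enough to test. Of these, 3 rose after acetaminophen in wild type, against 8.36% of all genes. Pkm, the muscle-type pyruvate kinase of most cells other than hepatocytes, had an FPKM of 2.21 and 2.79 in controls, 5.84 and 10.7 in treated wild type, and 9.57 and 9.30 in treated knockout. Its treated libraries were all above the controls, and it rose by 1.93 ± 0.28 on the log2 scale (edgeR adjusted p = 0.0129), while Pklr fell. Slc2a3, the neuronal and leukocyte glucose transporter GLUT3, rose by 4.13 ± 0.37 (edgeR adjusted p = 0.00366) from an FPKM of 0.0606 and 0.0376 to 0.632 and 0.877. Its controls lay below the filter of 0.5 on mean FPKM, so Slc2a3 was tested only through its treated libraries. Its rise and its place among the 3 are therefore not independent of that filter. Hexokinase 1 (Hk1) rose by 1.96 ± 0.47 (edgeR adjusted p = 0.0461), with an FPKM of 0.492 in wild-type acetaminophen replicate 1 and 1.41 in replicate 4, the library with the neuronal markers. The neutrophil sums were higher in all treated libraries, as were these isozymes. Within treated wild type the neutrophil sum was 153.8 CPM in replicate 1 and 74.4 CPM in replicate 4. Replicate 4 had the higher FPKM of Pkm, Slc2a3 and Hk1. The neuronal sum was high in replicate 4 alone, and in the knockouts it was 6.64 and 8.99 CPM. Pkm was at an FPKM of 9.57 and 9.30 there. The part of neutrophils, neurons or other cell types in the rise of these isozymes was not tested. Muscle phosphorylase (Pygm) followed no group, with an FPKM of 0.901 and 0.134 in the controls.

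The other genes of glucose metabolism were counted in 7 lists, apart from the 9, and 91 of 97 were abundant enough to test. After acetaminophen in wild type 22 rose and 11 fell (36.3%), with a median log2 fold change of 0.07. Over all genes tested 8.36% rose, 5.92% fell and 14.3% changed either way, and each list below is read against these shares. The lists were chosen with earlier results of these data known, so the contrast with these shares is a description and was not tested. Among all 100 genes tested, the 9 included, 35 passed. That count fell when any 1 library was left out, and so did the count over all genes.

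Of 18 further gluconeogenic enzymes and shuttles, 2 rose and none fell (11.1%, near the 14.3% of all genes), and the median was 0.00165. The risers were Got1, the cytosolic aspartate aminotransferase of the malate-aspartate shuttle (1.72 ± 0.26, edgeR adjusted p = 0.0143), and Gpt2, mitochondrial alanine aminotransferase (0.70 ± 0.17, adjusted p = 0.0441). The mitochondrial carboxykinase Pck2 was at 1.21 ± 0.35 (adjusted p = 0.0716) and lactate dehydrogenase Ldha at 0.52 ± 0.18 (adjusted p = 0.114). Slc37a4 carries glucose 6-phosphate to G6pc in the endoplasmic reticulum, and its FPKM was 59.7 and 68.5 in controls, 52.9 and 52.6 in treated wild type, and 37.6 and 33.6 in treated knockout. Both knockouts were below all other libraries. Slc37a4 fell against saline in treated knockout (-0.66 ± 0.14, edgeR adjusted p = 0.0225), and its difference from treated wild type (-0.60 ± 0.14) did not pass (adjusted p = 0.389).

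Of 12 genes of glycolysis entry and its control, 2 rose and 3 fell (41.7%), with a median of 0.01. The fallers were Pfkfb1, the liver enzyme that sets fructose 2,6-bisphosphate (-2.34 ± 0.32, edgeR adjusted p = 0.0106), the pyruvate dehydrogenase kinase Pdk2 (-0.86 ± 0.13, adjusted p = 0.0133), and Mlxipl, which encodes ChREBP (-0.72 ± 0.14, adjusted p = 0.0272). Txnip, a target of ChREBP that restrains glucose uptake, rose (1.69 ± 0.34, adjusted p = 0.0275), as did Pdk4, a fasting-induced kinase that shuts pyruvate dehydrogenase (2.32 ± 0.52, adjusted p = 0.0376). Pdk4 had an FPKM of 0.65 and 0.402 in controls, 2.57 and 1.99 in treated wild type, and 3.43 and 9.39 in treated knockout, a difference between treated groups of 1.45 ± 0.50 that did not pass (edgeR adjusted p = 0.522). Pklr and Txnip, both known ChREBP targets, moved in opposite directions, and the part of ChREBP in either change was not tested.

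Of 14 glycogen genes tested, 2 rose and 1 fell (21.4%), with a median of 0.02. Ppp1r3b, the liver targeting subunit that brings protein phosphatase 1 to glycogen and activates glycogen synthase, had an FPKM of 39.9 and 39.0 in controls, 11.0 and 8.79 in treated wild type, and 6.25 and 7.01 in treated knockout. The 3 groups were separate, in the same order as for Pklr and Slc2a2. It fell by 1.78 ± 0.17 on the log2 scale (edgeR adjusted p = 0.00398), and the difference between the treated groups (-0.62 ± 0.16) did not pass (adjusted p = 0.483). The risers were Gyg, glycogenin, the primer of glycogen (1.30 ± 0.24, adjusted p = 0.0217), and Pgm2, a phosphoglucomutase family member (1.86 ± 0.39, adjusted p = 0.0306). Of 7 genes of fructose and galactose entry (median -0.30), 2 fell (28.6%), Sord, sorbitol dehydrogenase (-0.71 ± 0.13, edgeR adjusted p = 0.0221), and Tkfc, triokinase (-0.83 ± 0.17, adjusted p = 0.0275), while ketohexokinase Khk was at 0.16 ± 0.14 (adjusted p = 0.470).

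Of 14 genes of hormone signalling to gluconeogenesis, 6 rose and none fell (42.9%, beside 14.3% of all genes), with a median of 0.37. Among them were the pseudokinase Trib1 (2.76 ± 0.20, edgeR adjusted p = 0.00225), the insulin receptor substrate Irs2 (2.65 ± 0.29, adjusted p = 0.00585) and the forkhead factor Foxo3 (adjusted p = 0.00946). Of 14 transcription factors and coactivators, 4 rose and 3 fell (50.0%), with a median of -0.09. Nr4a1, an immediate early nuclear receptor known to induce gluconeogenic genes, rose by 7.00 ± 0.39 (edgeR adjusted p = 0.00144), from an FPKM of 0.181 and 0.178 to 24.6 and 15.4. Its controls also lay below the filter on mean FPKM, so Nr4a1 too was tested only through its treated libraries. Esrra, the nuclear receptor that works with PGC-1alpha, fell (-1.33 ± 0.13, adjusted p = 0.00484). Of 12 other targets of fasting and glucocorticoids, 6 rose and 2 fell (66.7%), with a median of 0.82; Dusp1 (2.75 ± 0.21, edgeR adjusted p = 0.0025), a phosphatase of stress kinases, and Sds (1.90 ± 0.32, adjusted p = 0.0174), serine dehydratase, were among the risers. Sds is also one of the periportal markers. Igfbp1 rose by 6.27 ± 0.26 (edgeR adjusted p = 0.000798). The 4 enzymes of the gluconeogenic route had no call in the comparison in which these regulators and fasting targets were called. With 14.3% of all genes called, the absence of a call among 4 genes does not set them apart. The upper ends of their intervals were 1.14 for G6pc, 0.87 for Pcx, 0.35 for Fbp1 and 0.30 for Pck1, which still allow a rise.

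Between the treated groups, none of the 91 other genes passed in edgeR, where 0.103% of all genes did, and 12 had an unadjusted p under 0.05, where 8.77% of all genes did. With the 9 included, DESeq2 called 4 of 100 and limma none, and DESeq2 called 283 of all 11677 genes. In treated knockout against saline 20 of the 91 rose and 13 fell (36.3%), where 12.2% of all genes rose, 8.05% fell and 20.3% changed either way, and the median was -0.07. Counting all 100, 37 passed, and 20 did without control replicate 3 and 18 without knockout replicate 5.

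**Figure D5:**
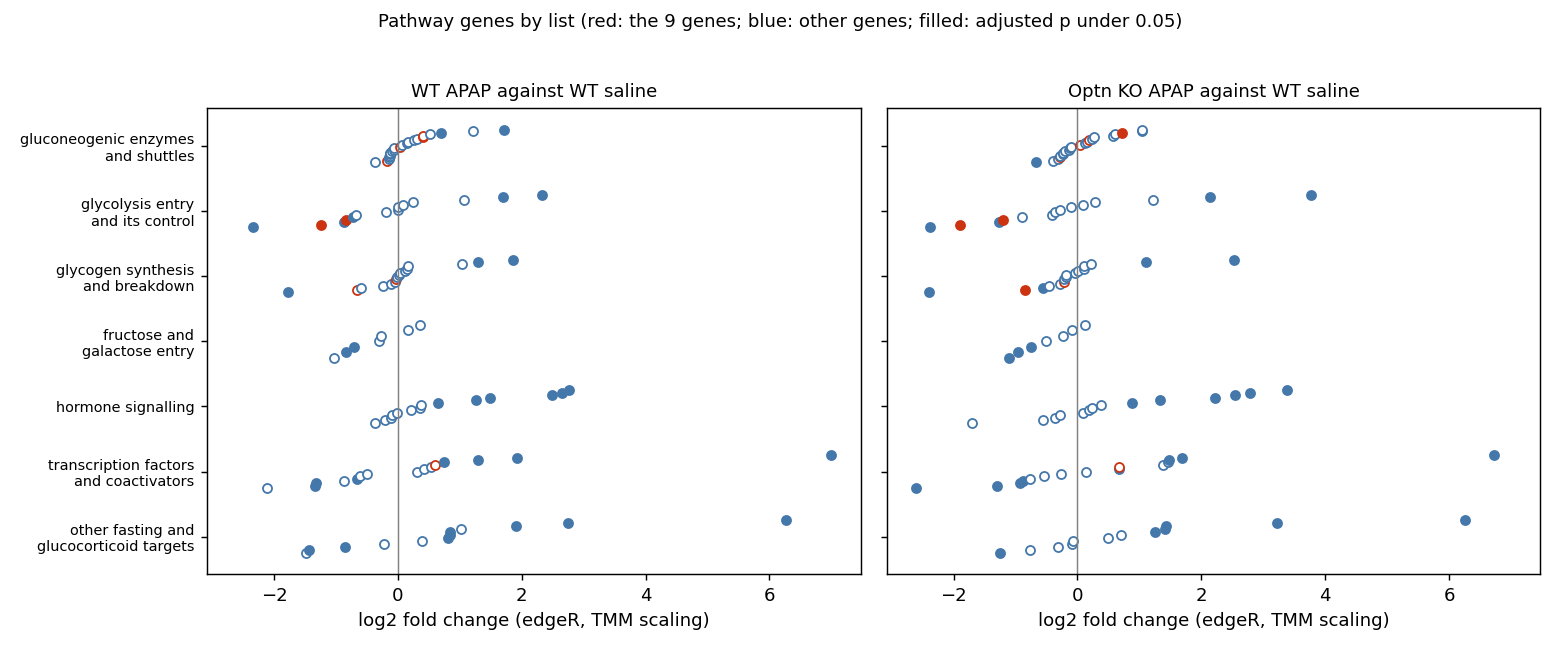
Log2 fold change (horizontal axis) of the 100 genes tested, by list (rows; points are spread vertically for legibility), for treated wild type and treated knockout against saline, which share the controls. Red points are the 9 genes and blue the others, filled where the adjusted p is under 0.05; the hormone signalling list has 6 filled points, all to the right, and Nr4a1 (7.00) and Igfbp1 (6.27) lie farthest out.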

How the data were processed

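Per the labels' protocols, messenger RNA from 6 livers was sequenced as paired ends. The deposited table holds whole-number counts per gene, without normalization, and FPKM values, per the file headers; a count of 0 is listed at an FPKM of 1e-04. The submitters' processing notes name Bowtie 0.12.2 and mm8, but the coordinates of 7 of the 9 genes equal those of GENCODE M21 (GRCm38), so GRCm38 is used. For the counter and its use of strand, nothing is given in the sources used here.

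Counts were tested with edgeR 4.0.16 (quasi-likelihood, TMM) in R 4.3.3, over 3 group means of all 6 libraries, for genes at or above a mean FPKM of 0.5. Residual degrees of freedom were 3, and the biological coefficient of variation common to all genes was 0.277. Exact permutation was not used, since 2 against 2 mice allow no two-sided p smaller than 0.333. Alternatives were DESeq2 1.42.0, limma 3.58.1 on log2(FPKM + 0.5) and log2(FPKM + 0.1), other scalings and filters, only the 2 groups compared, the library set as a term, and leaving out each library. The script was tested on simulated counts with a coefficient of variation below the 0.277 found here. That test therefore does not give the error rate in these data.

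The 9 genes, the lists and the markers were chosen with earlier results of these data known. Named from each list were up to 4 genes with the smallest p after acetaminophen and 2 in the knockout comparison, a selection of which is given, and some are not reported here; Pfkl and the intestinal list without Fabp2 were added after values were seen. The labels do not say whether replicates were raised or handled separately. The main p-values rest on the spread between mice within groups, pooled over the 3 groups. In the controls that spread includes any difference between the 2 library sets.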

Additional observations from a re-analysis of the deposited data

How the results depend on the processing

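No log2 fold change of the 9 genes that was called changed sign under any of the 15 alternatives, whereas uncalled estimates did, near 0 and away from it. Fbp1 in wild type was at -0.18 with total-count scaling and G6pc there at -0.00734 without control replicate 6. Between treated groups G6pc was at 0.56 and Pcx at -0.03 with the set as a term, and Ppargc1a in treated knockout against saline was at -0.13 without knockout replicate 5. The causes were not tested. Of the counts of the 9 genes, the 2 called after acetaminophen in wild type ranged from 1 to 2 when 1 library was left out, and the 4 called in treated knockout against saline from 2 to 3, with 2 when the library set was a term. Between treated groups DESeq2 called 1 of the 9 and 4 of the 100 pathway genes, where edgeR called 0. The 35 pathway genes called in wild type became 23 with only the 2 groups compared, 18 when the library set was a term and 12 to 24 with 1 library left out. The 37 called in treated knockout against saline became 20 with the set as a term and 18 to 33 with 1 library left out. Of the counts over all genes, 1667 in wild type ranged from 494 to 3102, 12 between treated groups from 1 to 283, and 2366 in treated knockout from 750 to 3619. DESeq2 gave the highest of each and leaving out 1 library the lowest. Ppargc1a has no value under the filter at an FPKM of 5. No paired analysis was possible because the treated groups share 1 replicate number and the controls none with them. With 2 mice per group, precision was lowest for G6pc (SE 0.30) and Ppargc1a (SE 0.52).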

Other observations

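The genes whose pattern over the 6 libraries lay closest to each called gene were found by the root mean square difference of log2 CPM, centred on each gene's mean. For Pklr they were Slc46a3, a lysosomal transporter (0.0639), and Eef2k, the kinase of elongation factor 2 (0.0669), which fell after acetaminophen in wild type by 1.17 and 1.37 on the log2 scale (edgeR adjusted p = 0.00987 and 0.0126). For Slc2a2 the closest was Gpatch11 (0.0675). For Gys2 they were Dhtkd1, a mitochondrial enzyme of lysine breakdown (0.0675), and Tuba4a, a tubulin (0.0743). For Pcx they were Gm7298 (0.0469) and Ano10 (0.0517), which had adjusted p of 0.446 and 0.238 by edgeR in wild type. The nearest genes were drawn from 11677 tested genes over 6 libraries, and nothing on shared control follows from them.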
